A study of Mus musculus with 20 samples.

Results

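Fgfr1, Fgfr2, Fgfr3, Spry1, Spry2, Spry4, Dusp6, Etv4, Etv5 and Spred1 are FGF receptors and genes of the feedback on ERK signalling, and their levels were followed in mouse neurospheres with and without Egfl7. They were found by symbol in the deposited table, each in 1 row, so 10 of its 36724 genes are described. All 10 passed the filter on low values, as did 16403 genes in all. Neurospheres are floating clusters grown from neural stem and progenitor cells, here from adult C57BL6 mice aged 8 to 12 weeks. They were kept untreated in B27 medium with EGF and FGF at 20 ng/ml. Egfl7 knockout and wild-type donors were compared in 3 settings. Spheres of the subventricular zone (SVZ), of the first sphere round and culture day 3, gave 3 knockout and 3 wild-type libraries. First-round hippocampal spheres at day 5 (HC1) gave 3 and 3, and second-round hippocampal spheres at day 5 (HC2) gave 4 and 4. All donors were male except the 3 HC1 wild types, which were female, so genotype and donor sex cannot be told apart in HC1. The labels do not describe the knockout allele. Mouse numbers differ within every group. A number that recurs in the other genotype or the other sex marks a different animal. Where it recurs within a genotype and sex, whether it marks the same animal is not said. All libraries were treated as independent, which leaves any shared animal out of account, and p-values measure the spread between them.

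FGFs bind receptor tyrosine kinases of the FGFR family, which work through RAS, RAF and MEK to activate the kinase ERK. ERK signalling switches on its own brakes: the Sprouty genes (Spry1, Spry2, Spry4) and Spred1 encode inhibitors that act near RAS and RAF, and Dusp6 encodes a phosphatase that removes phosphate from ERK. Etv4 and Etv5 encode ETS transcription factors that are turned on by FGF signalling. Adult neural stem cells divide in response to FGF2 and EGF in culture, and Fgfr3 is a marker of astrocytes and radial glia.

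Values are RPKM, a read number divided by gene length and by library depth, and differences are on the log2(RPKM + 1) scale unless stated. Depth, worked out from the lowest values of short single-exon genes, was 11700000 to 13800000 reads in the 12 first-round libraries and 17800000 to 31200000 in the 8 HC2 libraries. The 10 highest genes took 6.57 to 10.1% of the summed RPKM in the first round and 15.8 to 29.1% in HC2, where the 7SL RNA genes Rn7s1 and Rn7s2 were highest. Round therefore moves with depth and with this share, and their part in the results was not tested. The hippocampal knockout libraries, 3 of HC1 and 4 of HC2, all had Egfl7 at 0 RPKM, against 0.566 to 1.34 RPKM in wild types of HC1 and 0.996 to 1.59 RPKM in wild types of HC2. In the SVZ it went against the labels in 1 library of each genotype. The library labelled knockout replicate 2 had 2.86 RPKM, and the library labelled wild type replicate 3 had 0 RPKM. The neural progenitor markers Nes, Sox2 and Fabp7 were above 0 in all 20 libraries. The endothelial gene Cdh5 was at 0 in 19 of 20 and Pecam1 in 4 of 20, with at most 0.198 RPKM. The microglial gene Cx3cr1 was at 0 in 20 of 20, Csf1r in 8 of 20 and P2ry12 in 0 of 20, with at most 0.97 RPKM of P2ry12. Sums of 11 endothelial and of 10 microglia and macrophage genes were highest in the SVZ, at up to 8.5 and 9.0 RPKM. Such cells were thus low but not shown to be absent.

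Start regions of 7 of the 10 genes were matched in RefSeq windows of 300 bases, 250 before the start and 50 after it, on GRCm38.p6. Fgfr1, Spry4 and Etv4 were not matched. The windows were searched on both strands for the capicua sites TGAATGAA, TGAATGGA, TCAATGAA and TCAATGGA, for the ETS site CCGGAAGT and for the cyclic AMP response element TGACGTCA. Capicua is a repressor that ERK signalling lifts from its targets. The 7 genes had 9 windows, since a gene can have more than 1 start. A capicua site was found in 2 of the 9, 1 of Dusp6 and 1 of Spry2, and in 3.84% of all 32851 windows. The ETS site was in 0 of the 9 and in 3.89% of all windows, and the cyclic AMP element in 0 of the 9 and in 1.79%. A match is a description of the letters, not evidence that the factor binds. Dusp6 and Spry2 are shown because they hold the matches and were the 2 genes whose SVZ groups did not overlap. Spry1, which varied with them in HC2, is shown as a window with no match. The windows are Dusp6 at chr10:99262981-99263280 on the plus strand, Spry2 at chr14:105896770-105897069 on the minus strand and Spry1 at chr3:37639697-37639996 on the plus strand. They are printed 5′ to 3′ along the gene, and capitals mark capicua sites read on the opposite strand.
Dusp6: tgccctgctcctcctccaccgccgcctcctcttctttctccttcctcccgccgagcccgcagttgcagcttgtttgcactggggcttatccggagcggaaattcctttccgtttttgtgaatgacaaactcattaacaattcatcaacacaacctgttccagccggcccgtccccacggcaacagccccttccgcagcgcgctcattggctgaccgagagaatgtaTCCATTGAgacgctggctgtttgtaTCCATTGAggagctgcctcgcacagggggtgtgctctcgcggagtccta
Spry2: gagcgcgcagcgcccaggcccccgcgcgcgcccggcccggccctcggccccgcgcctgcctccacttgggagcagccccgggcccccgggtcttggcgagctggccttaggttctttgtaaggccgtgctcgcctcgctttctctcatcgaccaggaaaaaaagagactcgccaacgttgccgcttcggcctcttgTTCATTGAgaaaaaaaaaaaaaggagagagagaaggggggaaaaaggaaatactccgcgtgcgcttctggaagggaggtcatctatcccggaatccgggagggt
Spry1: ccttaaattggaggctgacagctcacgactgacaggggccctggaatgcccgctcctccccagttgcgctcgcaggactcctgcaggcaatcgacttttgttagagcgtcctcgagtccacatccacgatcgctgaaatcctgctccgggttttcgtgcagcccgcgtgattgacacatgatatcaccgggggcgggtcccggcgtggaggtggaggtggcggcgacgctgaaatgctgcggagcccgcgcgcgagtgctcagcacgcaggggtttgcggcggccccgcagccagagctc
In the Dusp6 window the site occurred at 2 places, starting 24 bases before the gene's start and at base 2 of the gene. In the Spry2 window it started 54 bases before the start.

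In the first round Fgfr2 was the lowest of the 3 FGF receptor genes. Fgfr1 (chr8:25513623-25575718, GRCm38) and Fgfr3 (chr5:33721724-33737068) were both above Fgfr2 (chr7:130162451-130266944) in 20 of the 20 libraries. In HC2 the gap could be small, and wild type replicate 5 had 58.1 RPKM of Fgfr1 beside 54.3 RPKM of Fgfr2. Fgfr1 was above Fgfr3 in 5 of 6 SVZ and 4 of 6 HC1 libraries, but in 0 of 8 HC2 libraries. RPKM are scaled by length, so levels of different genes can be set side by side, although the libraries were enriched with exon capture probes that need not recover every gene alike. Fgfr4, the remaining receptor gene, was at most 0.074 RPKM in any library and did not pass the filter.

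Among all 10 genes, ranked by mean RPKM, Spry2 was highest in the SVZ at 214 ± 13.3 RPKM and in HC1 at 182 ± 34.1 RPKM (SD, n = 6 each). In the SVZ its libraries lay wholly above those of the next gene, Etv5, at 131 ± 13.8 RPKM. Spred1 at 126 ± 14.1, Dusp6 at 119.6 ± 14.5 and Fgfr1 at 107 ± 8.25 RPKM followed, and the ranges of neighbours in that run overlapped. Etv4 at 81.9 ± 6.89, Spry1 at 79.8 ± 11.7 and Fgfr3 at 74.1 ± 21.7 RPKM overlapped in the same way. Spry4 at 36.2 ± 6.63 RPKM lay wholly above Fgfr2, the lowest, at 9.17 ± 1.47 RPKM. In HC1, Fgfr2 at 17.4 ± 5.79 RPKM and Spry4 at 20.0 ± 7.49 RPKM were again the lowest and overlapped. In HC2, Fgfr3 led at 178 ± 73.6 RPKM (SD, n = 8), ahead of Spry2 at 142 ± 67.1 RPKM. Spry4 was lowest there at 16.9 ± 13.2 RPKM, and the ranges of all neighbours overlapped.

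**Figure D1:**
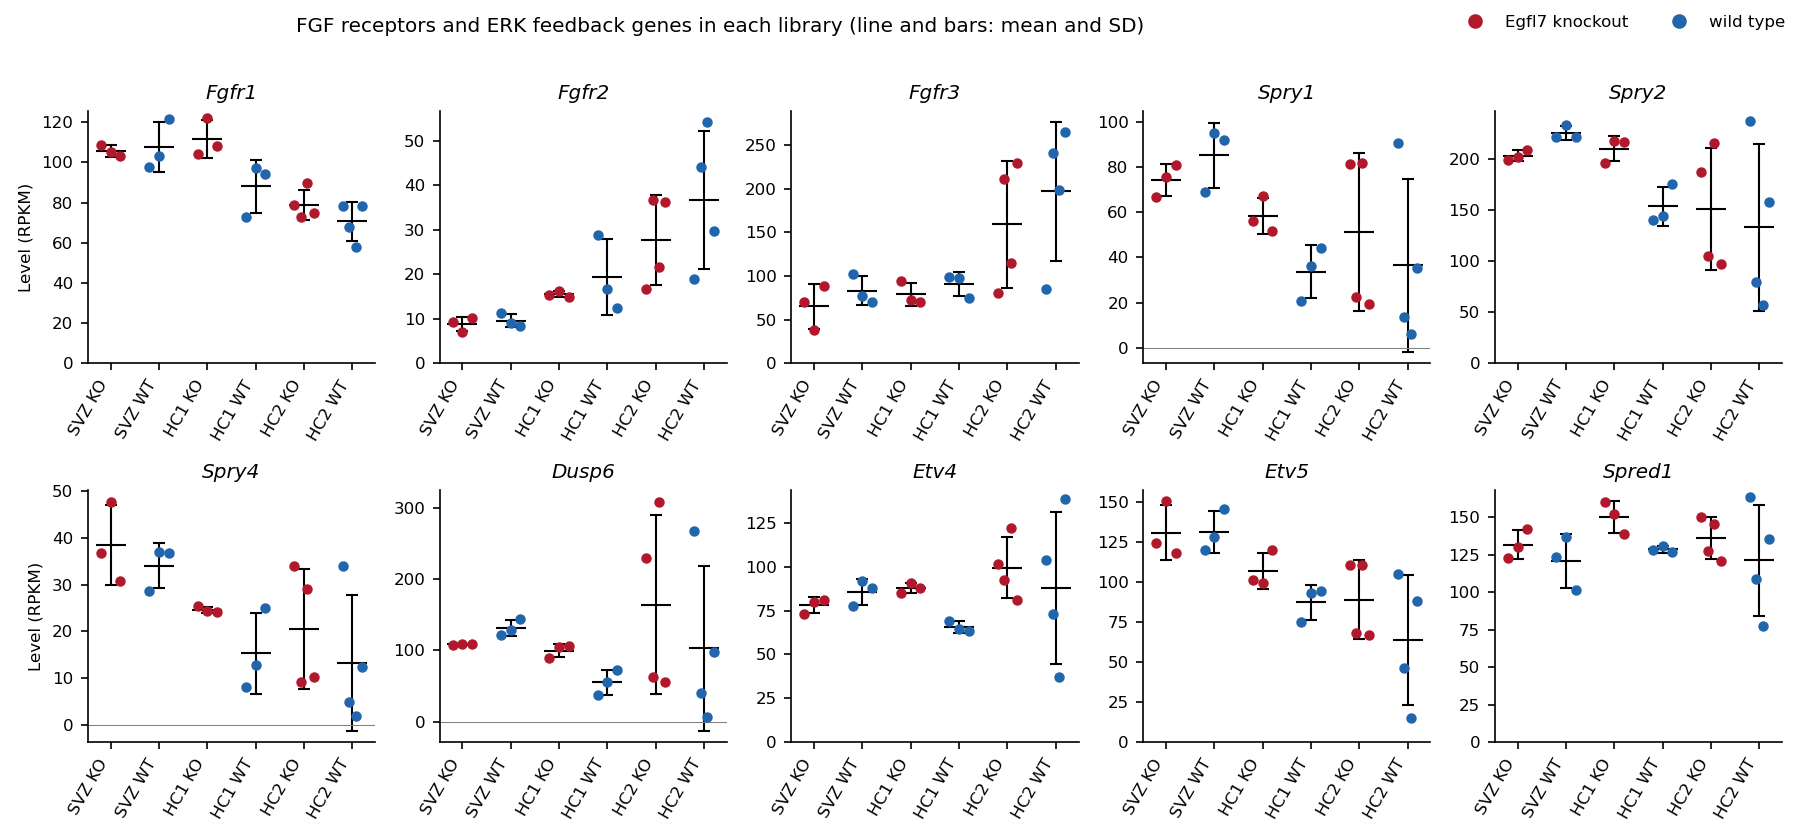
Level in RPKM (vertical axis, linear from 0) of each gene in every library of the 6 groups, with knockout libraries in red, wild types in blue, and the mean and SD of each group in black. Fgfr2 and Fgfr3 are highest in HC2, and the feedback genes spread most there: Dusp6 runs from 6.13 to 308 RPKM.

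The knockout was first compared with the wild type in each setting, to ask how these genes differ with Egfl7 genotype. With limma on all 16403 genes, 0 of the 10 genes passed an adjusted p of 0.05 in the SVZ, HC1 or HC2, where 0.0122%, 0.0122% and 0.0244% of all genes did. In the mean of both hippocampal contrasts 0 of 10 passed, against 0.0305% of all genes. At an unadjusted two-sided limma p under 0.05 the counts were 0 of 10 in the SVZ, 1 of 10 in HC1, 0 of 10 in HC2 and 1 of 10 in the hippocampal mean. Over all genes the same threshold was met by 379 in the SVZ, 646 in HC1, 644 in HC2 and 970 in the hippocampal mean. The 1 gene was Fgfr1 each time, with a hippocampal mean difference of 0.25 (SE 0.09, adjusted p = 0.75). The median difference of the 10 genes was -0.12 in the SVZ, 0.38 in HC1 and 0.31 in HC2, beside -0.0021, -0.0126 and 0.0004 over all genes. Intervals were wide, and that of Dusp6 in HC1 ran from -1.01 to 2.79, so a failed test does not show that the levels were alike.

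In SVZ spheres, Spry2 and Dusp6 were the 2 genes whose knockout and wild-type libraries did not overlap, both lower in the knockouts. Over all genes, groups did not overlap in 7.76%, with 4.35% lower in knockouts. Spry2 (chr14:105891947-105896819), the most abundant Sprouty gene here, had 199, 202 and 209 RPKM in SVZ knockouts, against 222, 233 and 221 RPKM in SVZ wild types. Every knockout library lay below every wild-type library. The difference was -0.15 (SE 0.39, 95% interval -0.97 to 0.67, adjusted p = 1, limma). Dusp6 (chr10:99263231-99267489), the ERK phosphatase gene, had 107, 109 and 109 RPKM in SVZ knockouts, against 121, 129 and 144 RPKM in SVZ wild types. The knockout libraries were again all lower, with a difference of -0.27 (SE 0.90, adjusted p = 1, limma). Both SEs come from a spread shared by all 6 groups and are widened by HC2. Without both SVZ libraries whose Egfl7 goes against the label, the differences were -0.16 for Spry2 and -0.21 for Dusp6. With a fit on the SVZ groups alone, 0 of 10 genes passed as well. The other 8 genes overlapped, with differences from -0.41 for Fgfr3 to 0.16 for Spry4. Fgfr3 had 69.7, 37.5 and 88.1 RPKM in SVZ knockouts, against 102, 77.7 and 69.8 RPKM in SVZ wild types. Its low library, knockout replicate 2, is the one with 2.86 RPKM of Egfl7. Without that library the Fgfr3 difference was -0.06, without knockout replicate 3 it was -0.67, without wild type replicate 1 it was -0.26, and without both libraries whose Egfl7 goes against the label it was -0.18.

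In HC1, 7 of the 10 genes were higher in every knockout library than in any wild-type library, and 0 were lower throughout. Over all genes 13.7% did not overlap, with 6.63% higher in knockouts. The 7 were Fgfr1, Spry1, Spry2, Dusp6, Etv4, Etv5 and Spred1. Spry1 (chr3:37639846-37644599) had 56.0, 67.0 and 51.5 RPKM in HC1 knockouts, against 20.9, 36 and 44.0 RPKM in HC1 wild types. All knockouts were higher, and wild type replicate 1 was the lowest. The difference was 0.83 (SE 0.70, adjusted p = 0.98, limma), a 1.77-fold level of RPKM + 1. This SE and the other SEs given for HC1 come from the spread shared by all 6 groups, HC2 included. In limma on the HC1 groups alone the adjusted p was 0.69 for each of the 7 genes.

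Dusp6 had 88.4, 105 and 105 RPKM in HC1 knockouts, against 37.2, 55.5 and 72.3 RPKM in HC1 wild types. Wild type replicate 1 was again lowest, and the groups did not overlap. The difference was 0.89 (SE 0.90, adjusted p = 0.98, limma). Spry2 had 196, 218 and 216 RPKM in HC1 knockouts, against 141, 145 and 175 RPKM in HC1 wild types, a difference of 0.45 (SE 0.39, adjusted p = 0.98, limma). Fgfr1 had 104, 122 and 108 RPKM in HC1 knockouts, against 73.1, 97.3 and 94.2 RPKM in HC1 wild types. That difference of 0.35 (SE 0.13, 95% interval 0.06 to 0.63) had an unadjusted limma p of 0.0195 and an adjusted p of 0.98.

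The ETS factor genes and Spred1 stood apart in HC1 as well. Etv4 (chr11:101769742-101785310) had 85.0, 90.5 and 88.0 RPKM in HC1 knockouts, against 69.3, 64.2 and 63.2 RPKM in HC1 wild types. These groups were tight and stood apart, with a difference of 0.42 (SE 0.30, adjusted p = 0.98, limma). On the log2 scale their SDs were 0.046 in knockouts and 0.070 in wild types, against a pooled SD of 0.60 in HC2. The SE of Etv4 is therefore widened by HC2, and in limma on the HC1 groups alone its adjusted p was 0.69. Etv5 (chr16:22381313-22439570) ranged from 99.3 to 119.8 RPKM in HC1 knockouts, against 74.9 to 94.6 RPKM in wild types. Spred1 (chr2:117121071-117182279) ranged from 139 to 160.0 RPKM in HC1 knockouts, against 127 to 131 RPKM in wild types. Spry4 overlapped in HC1, with 25.4, 24.3 and 24.2 RPKM in knockouts, against 8.23, 12.8 and 24.9 RPKM in wild types. Its gene lies at chr18:38586265-38601268. Wild type replicate 3 reached the knockout level and the others did not. Fgfr2 and Fgfr3 overlapped as well, with differences of -0.22 and -0.20 (adjusted p = 0.98 and 0.99, limma).

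The HC1 knockouts were also of the other donor sex. The summed level of 22 cell-cycle genes was 1319.7 to 1935 RPKM in HC1 knockouts, against 736 to 1576 RPKM in HC1 wild types. The sum of 10 astrocyte genes, Fgfr3 left out, was 1976 to 2369.9 RPKM in HC1 knockouts, against 2019.5 to 3325 RPKM in HC1 wild types. Wild type replicate 1 had the lowest cell-cycle sum and 149 RPKM of the astrocyte gene Gfap, against 2.31 to 4.27 RPKM in HC1 knockouts. In bulk spheres, fewer cells of a type and less RNA per cell cannot be told apart. The part of sex and of this library in the difference was not tested beyond leaving the library out. Without it Fgfr1 differed by 0.22, against 0.35 with it, and Dusp6 by 0.64, against 0.89. Spry1 differed by 0.53 without it, Spry4 by 0.44, against 0.78 with it, and Etv5 by 0.18, against 0.29. Fgfr2 turned to 0.10, against -0.22 with it. Etv4 differed by 0.46 without it, against 0.42 with it, and Spry2 by 0.40, against 0.45. Whichever single HC1 library was left out, Spred1 stayed between 0.18 and 0.28 and Fgfr3 between -0.33 and -0.12.

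In HC2, 0 of the 10 genes had groups that did not overlap, against 1.13% of all genes. Dusp6 had 229, 62.7, 308 and 55.3 RPKM in HC2 knockouts, against 267, 40.6, 6.13 and 97.9 RPKM in HC2 wild types. Each genotype held both high and low libraries. The difference was 1.26 (SE 0.78, 95% interval -0.39 to 2.90, adjusted p = 0.99, limma). It was 0.29 without wild type replicate 5, 0.83 without knockout replicate 7 and 2.03 without wild type replicate 2. This SE and those of Etv5 and Spry4 come from the spread shared by all 6 groups. The tighter first-round groups narrow them. Within HC2 the SD of Dusp6 on the log2(RPKM + 1) scale was 1.26 in knockouts and 2.22 in wild types. Etv5 differed by 0.75 (SE 0.40, adjusted p = 0.99, limma) and by 0.19 without wild type replicate 5. Spry4 differed by 0.97 (SE 0.58, adjusted p = 0.99, limma) and by 0.40 without it, but by 1.60 without wild type replicate 2. Spry1 differed by 0.81, Spry2 by 0.32, Etv4 by 0.31, Spred1 by 0.21 and Fgfr1 by 0.16. Fgfr2 and Fgfr3 went the other way, by -0.36 and -0.31. The adjusted limma p was 0.99 for each of these genes.

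The knockout differences were compared between settings. Of the 10 genes, 0 passed an adjusted limma p of 0.05 for SVZ against HC2 (0.0305% of all genes) or for HC1 against HC2 (0.0244% of all genes). HC1 was set against the SVZ after the values were seen. The SVZ minus HC1 difference of differences was -0.60 for Spry2 (SE 0.55), -1.16 for Dusp6 (SE 1.27) and -0.55 for Etv4 (SE 0.43), each with an adjusted p of 1 in limma on all groups. In limma on the first-round groups alone the SEs were 0.13, 0.26 and 0.12, and the adjusted p was 0.53 for each.

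**Figure D2:**
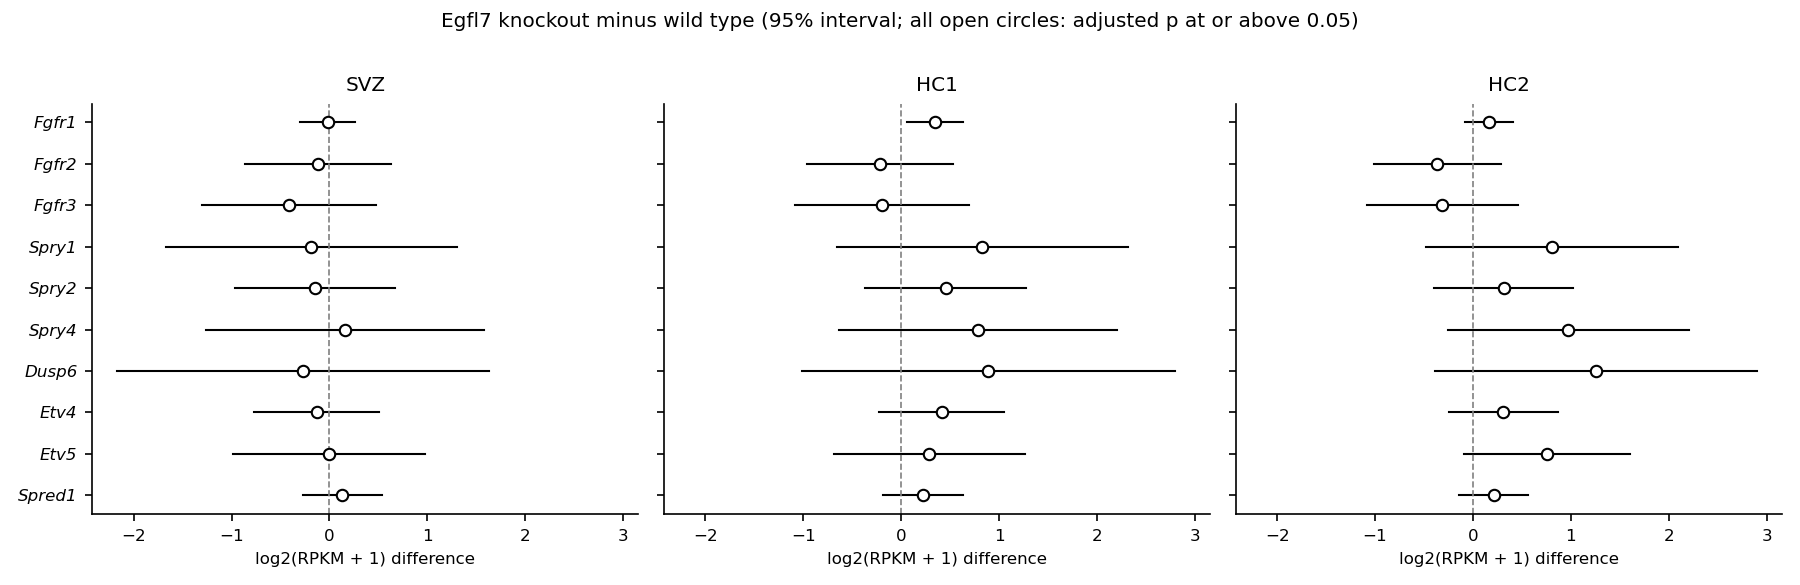
Knockout minus wild type difference of log2(RPKM + 1) (horizontal axis) for each gene in SVZ, HC1 and HC2 spheres, with 95% intervals from limma. All circles are open because 0 of 10 genes passed the adjusted threshold in any setting; the interval of Fgfr1 in HC1 runs from 0.06 to 0.63.

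SVZ spheres were compared with HC1 spheres to ask how the genes differ between the 2 neurogenic regions. Culture day differs with region, 3 against 5, and the female donors are all in HC1. With limma on all 6 groups, 1 of the 10 genes passed, Fgfr2, which was lower in the SVZ. Over all genes 34.1% passed, and 19.6% were lower. Fgfr2 had 9.22, 6.97 and 10.2 RPKM in SVZ knockouts and 11.3, 8.97 and 8.43 RPKM in SVZ wild types. In HC1 it had 15.4, 16.2 and 15 RPKM in knockouts and 28.8, 16.8 and 12.3 RPKM in wild types. All 6 SVZ libraries lay below all 6 HC1 libraries. The difference was -0.82 (SE 0.25, adjusted p = 0.019, limma), a 0.567-fold level of RPKM + 1. It was -0.66 with an adjusted p of 0.054 without HC1 wild type replicate 1. Without both SVZ libraries whose Egfl7 goes against the label it was -0.71 with an adjusted p of 0.099.

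Spry4 and Dusp6 were the other genes whose SVZ and HC1 libraries did not overlap. Over all genes 23.6% did not overlap. Spry4 had 36.8, 47.7 and 30.8 RPKM in SVZ knockouts and 28.6, 36.8 and 36.7 RPKM in SVZ wild types, against the HC1 values above, of at most 25.4 RPKM. Dusp6 was at 107 RPKM or more in the SVZ and at 105 RPKM or less in HC1. On all 6 groups the differences were 0.91 for Spry4 (SE 0.48, adjusted p = 0.15) and 0.70 for Dusp6 (SE 0.64, adjusted p = 0.42) in limma. In limma on the SVZ and HC1 groups alone, whose spread leaves out HC2, 6 of the 10 genes passed, against 43.1% of all genes. Those that were higher in the SVZ were Spry1 by 0.86 (adjusted p = 0.0017), Spry2 by 0.26 (adjusted p = 0.0093), Spry4 by 0.91 (adjusted p = 0.0050), Dusp6 by 0.70 (adjusted p = 0.0016) and Etv5 by 0.44 (adjusted p = 0.0032). Fgfr2 was lower with an adjusted p of 0.0032 in that fit.

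Between male donors alone, SVZ knockouts against HC1 knockouts, several of these differences were smaller. In limma on those 2 groups, 2 of 10 genes passed, against 20.4% of all genes: Fgfr2 was lower (difference -0.77, adjusted p = 0.015) and Spry4 higher by 0.60 (adjusted p = 0.036). With the spread of all 6 groups 0 of 10 passed, against 7.06% of all genes. Dusp6 differed by 0.12 between male groups and Spry1 by 0.35, and Fgfr1, Spry2 and Etv4 turned to -0.08, -0.05 and -0.17. The male groups did not overlap for Fgfr2, Spry4, Dusp6 and Etv4, 4 of 10 genes, against 41.8% of all genes. The summed cell-cycle level was 2824 to 3257 RPKM in the SVZ, against 736 to 1935 RPKM in HC1. The astrocyte sum without Fgfr3 was 967 to 1795 RPKM in the SVZ, against 1976 to 3325 RPKM in HC1. Their part in the differences was not tested.

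HC2 was compared with HC1 to see what a further round of sphere growth goes with. With limma on all 6 groups the 3 receptors passed and the 7 feedback and ETS genes did not. Over all genes 54.3% passed. The 7 genes also spread more between HC2 libraries, as given below, so their failed tests do not show equal levels. The summed cell-cycle level was 71.3 to 1733 RPKM in HC2, against 736 to 1935 RPKM in HC1. The astrocyte sum without Fgfr3 was 1976 to 5909 RPKM in HC2, against 1976 to 3325 RPKM in HC1. Their part in the differences was not tested. Fgfr1 was lower in HC2, with 78.7, 72.9, 89.6 and 74.8 RPKM among its knockouts and 78.5, 67.8, 58.1 and 78.4 RPKM among its wild types. The HC1 values above ran from 73.1 to 122 RPKM, and only wild type replicate 1 of HC1 lay within the HC2 range. The difference was -0.40 (SE 0.09, adjusted p = 0.00096, limma).

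Fgfr2 was higher in HC2, with 16.7, 36.6, 21.6 and 36.2 RPKM in knockouts and 19.0, 44.0, 54.3 and 29.8 RPKM in wild types. The 3 lowest HC2 libraries lay below HC1 wild type replicate 1, and the rest of HC2 lay above all HC1 libraries. The difference was 0.80 (SE 0.23, adjusted p = 0.0080, limma). Fgfr3 had 80.5, 212, 115 and 229.8 RPKM among knockouts of HC2 and 85.3, 241, 198 and 265 RPKM among its wild types. In HC1 it had 94.4, 72.7 and 70.0 RPKM in knockouts and 99.4, 97.8 and 74.8 RPKM in wild types. The HC2 libraries fell into 2 that lay among the HC1 values and 6 that lay above all of them. The difference was 0.95 (SE 0.28, adjusted p = 0.0089, limma).

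Among male donors alone, HC2 knockouts against HC1 knockouts, Fgfr1 was the 1 of 10 genes that passed, against 38.3% of all genes. There Fgfr2 differed by 0.73 (adjusted p = 0.092, limma) and Fgfr3 by 0.89 (adjusted p = 0.086, limma). With donors of both sexes, Spry1, Spry2, Spry4 and Etv5 differed by -0.46, -0.49, -0.56 and -0.53, with adjusted limma p from 0.12 to 0.42. Between the male groups their differences were -0.47, -0.56, -0.46 and -0.30. Without HC2 wild type replicate 5 they were -0.17, -0.32, -0.27 and -0.25, and without HC2 wild type replicate 2 they were -0.78, -0.66, -0.87 and -0.70. Weighting libraries by quality raised the count to 7 of 10, against 61.4% of all genes, with Spry1, Spry2, Spry4 and Etv5 lower besides the receptors. Without HC2 wild type replicate 2, 6 of 10 passed, against 57.5% of all genes, with Spry2, Spry4 and Etv5 besides the receptors. Between HC2 and HC1, 0 of the 10 genes had groups that did not overlap, against 25.4% of all genes. On all 6 groups Dusp6, Etv4 and Spred1 differed by 0.15, 0.21 and -0.14, with adjusted limma p from 0.36 to 0.85.

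**Figure D3:**
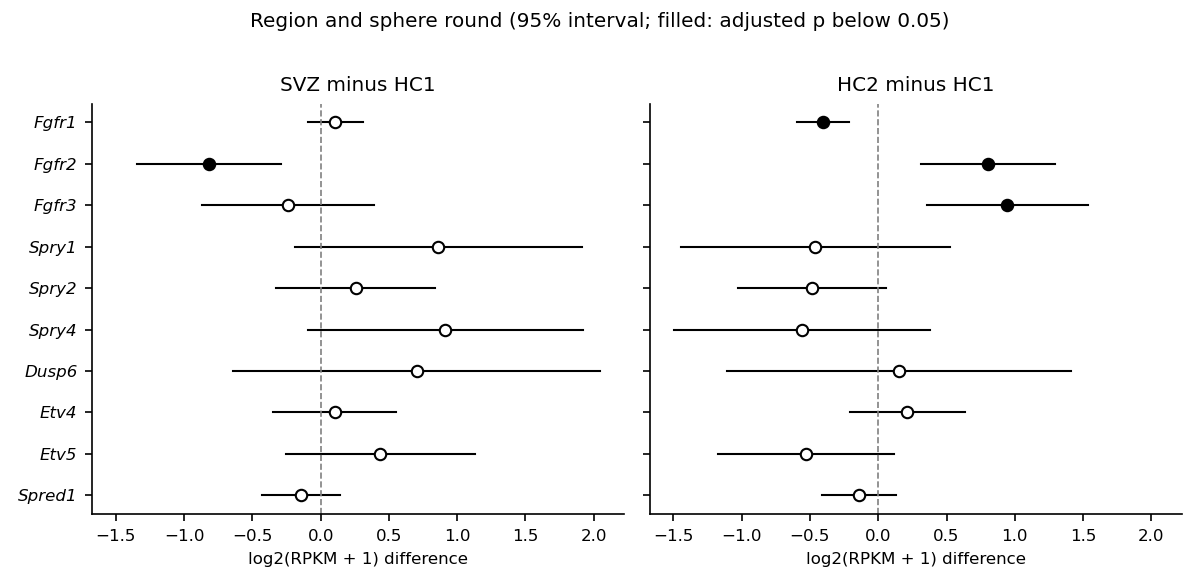
Differences of log2(RPKM + 1) (horizontal axis) for each gene between SVZ and HC1 spheres (left) and between HC2 and HC1 spheres (right), from limma on all 6 groups with 95% intervals. Filled circles passed an adjusted p of 0.05: Fgfr2 at -0.82 on the left, and Fgfr1 at -0.40, Fgfr2 at 0.80 and Fgfr3 at 0.95 on the right.

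The spread between libraries of 1 group was larger in HC2 than in the first round for all 10 genes, by ratios of SDs from 1.12 for Fgfr1 to 7.72 for Spry2. The pooled SD of Dusp6 within groups was 1.80 in HC2 and 0.26 in the first round, and 99.8% of 13654 genes of at least 1 RPKM varied less than Dusp6 in HC2. Spry1 had SDs of 1.38 in HC2 and 0.32 in the first round, Spry4 of 1.27 and 0.42, and Etv5 of 0.92 and 0.17. The median over those genes was 0.26 in HC2 and 0.19 in the first round. Spred1 had 0.34 in HC2 and 0.13 in the first round, and 66.5% of the genes varied less than it in HC2. Fgfr1 had 0.17 in HC2 and 0.15 in the first round, and 25.3% varied less than it in HC2. Dusp6 was 5.58 times higher in the highest than in the lowest HC2 knockout library and 43.5 times in HC2 wild types.

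The genes moved in the same libraries. Knockout replicates 1 and 7 and wild type replicate 2 were the 3 highest HC2 libraries for 7 of the 10 genes: Fgfr1, Spry1, Spry2, Spry4, Dusp6, Etv5 and Spred1. For Fgfr1 the lowest of the 3 was only 1.002 times the next library. The same 3 were highest for 23.8% of the 13654 genes. For Fgfr2 and Fgfr3 these 3 libraries were the lowest, as they were for 13.1% of the genes. Wild type replicate 5 was lowest for 8 of the 10 genes, as it was for 18.4% of the 13654, and highest for Fgfr2, as for 13.5%. Etv4 kept to neither order, since its highest library was wild type replicate 6 at 139 RPKM.

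Spry1 had 81.5, 22.5, 81.8 and 19.3 RPKM in HC2 knockout replicates 1, 4, 7 and 8, against 90.7, 13.6, 6.11 and 35.4 RPKM in wild type replicates 2, 3, 5 and 6. Spry2 had 187, 105, 216 and 96.9 RPKM in the same knockouts, against 237, 79.2, 56.9 and 158 RPKM in the wild types. Spry4 had 33.9, 9.15, 29.0 and 10.2 RPKM in the knockouts, against 33.9, 4.95, 1.90 and 12.4 RPKM in the wild types. In each case 3 libraries were high and wild type replicate 5 was at the bottom. The summed level of the 22 cell-cycle genes was 1382, 402, 1464 and 276 RPKM in those knockouts, against 1733, 142, 71.3 and 310.4 RPKM in the wild types. Mki67, a marker of dividing cells, had 52.6, 21.1, 56.2 and 12.2 RPKM in the knockouts, against 68.5, 5.63, 1.03 and 15 RPKM in the wild types. The sum of 10 astrocyte genes without Fgfr3 was 2316, 3477, 2273 and 4794 RPKM in the knockouts, against 1976, 4941, 5909 and 3928 RPKM in the wild types. The 3 libraries high in the Sprouty genes thus had the highest cell-cycle sums and the lowest astrocyte sums. Whether either bears on the feedback genes was not tested. The libraries split into high and low ones in both genotypes, so no correlation is given over them.

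**Figure D4:**
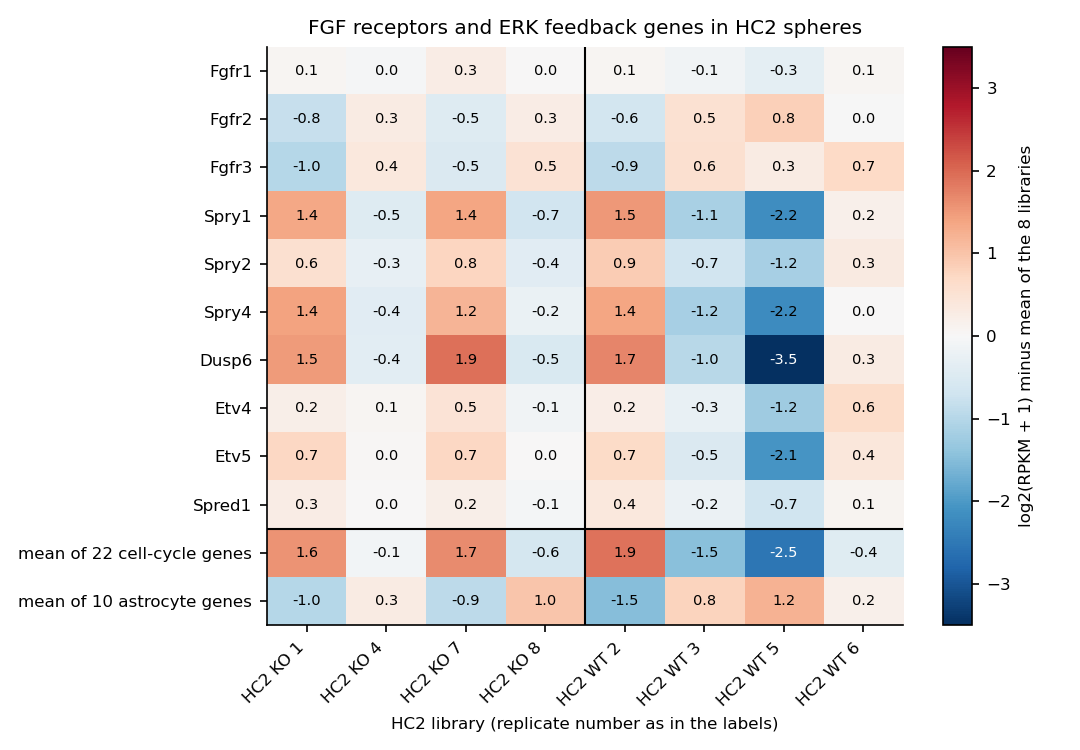
Level of each gene in the 8 HC2 libraries as log2(RPKM + 1) minus the mean of the 8 (colour and printed value), with the means of 22 cell-cycle genes and of 10 astrocyte genes other than Fgfr3 in the bottom rows. Knockout libraries 1 and 7 and wild type 2 are high in the feedback genes and in the cell-cycle mean and low in Fgfr2, Fgfr3 and the astrocyte mean; wild type 5 is low in the feedback genes.

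Over the 12 SVZ and HC1 libraries, Pearson r between deviations from the group means ranged from -0.48 to 0.86 for the 15 pairs among Spry1, Spry2, Spry4, Dusp6, Etv5 and Spred1. Fgfr2 and Fgfr3 had r = 0.63 over the same 12 libraries. All genes of a library share its depth and its scaling, so these values are a description.

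Other genes with the most similar profiles over the 20 libraries were sought among 11687 named genes of at least 1 RPKM on average, by Pearson r of log2(RPKM + 1). Fgfr3 was closest to the astrocyte enzyme gene Aldoc (r = 0.95), Nrcam and Ppap2b. Spry4 was closest to the cyclin gene Ccnd1 (r = 0.98), Rhobtb2 and Fbn2, and Rhobtb2 was also closest to Spry1 and to Spry2. Etv5 was closest to Fanci, the cyclin gene Ccna2 (r = 0.96) and the spindle checkpoint gene Bub1b. Fgfr2 was closest to the glycogen phosphorylase gene Pygb (r = 0.99), Smox and Nadk2, and Fgfr1 to Uxs1, Lphn2 and Zmpste24. Dusp6 was closest to a row whose name the table gives as a date, then to Hip1 and Slc25a25. Likeness was lower for Etv4, led by Cacng8 (r = 0.86), and for Spred1, led by another row named as a date (r = 0.82). The r values span groups and the HC2 split, and all genes share the libraries' depth. Over the 12 first-round libraries alone, r with the same leading gene was 0.404 for Etv4 and 0.482 for Spred1. For the other genes it ran from 0.845 for Dusp6 to 0.966 for Fgfr2.

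The rest of the FGF to ERK pathway was read from 6 lists of 86 genes, of which 68 passed the filter. Of these, 0 of 68 passed in any knockout comparison. Between the SVZ and HC1, 11 were higher and 13 lower, which is 35.3% of the 68 beside 34.1% of all genes, with a median difference of 0.03 beside -0.03 over all genes. Of 10 other ERK-induced genes, 4 were higher and 1 lower in the SVZ. They included the immediate early genes Ier2 (1.13, SE 0.16, adjusted p = 0.00015, limma) and Egr1 (1.03, SE 0.26, adjusted p = 0.0076, limma). Egr1 had 131 ± 9.78 RPKM in SVZ knockouts and 132 ± 12.9 in SVZ wild types, against 84.6 ± 9.08 in HC1 knockouts and 50.1 ± 15.5 in HC1 wild types (SD, n = 3 each). The AP-1 gene Fosl1 (0.86) and Phlda1 (0.64) were also higher, and the ETS factor gene Etv1 was lower (-0.46). Among the kinase genes, the ERK-activated Rps6ka1 was higher by 0.90. Of 18 other receptor and co-receptor genes, 15 of which passed the filter, 3 were higher and 4 lower. The heparan sulphate carriers Sdc1, Gpc1 and Sdc3 were higher by 1.62, 0.52 and 0.47, and the lower genes were Gpc5 (-2.14), Gpc4 (-0.70), Gpc2 (-0.60) and Flrt2 (-0.52).

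Of 18 FGF ligand genes only 5 passed the filter. Fgf1 had 10.2 ± 2.15 RPKM in SVZ knockouts and 12.4 ± 2.83 in SVZ wild types, against 23.5 ± 4.40 in HC1 knockouts and 21.5 ± 2.51 in HC1 wild types (SD, n = 3 each). It was lower in the SVZ (difference -0.95, SE 0.13, adjusted p = 0.00015, limma). In HC2 it had 36.4 ± 5.07 RPKM in knockouts and 35.3 ± 4.82 in wild types (SD, n = 4 each), higher than in HC1 by 0.65 (SE 0.12, adjusted p = 0.00024, limma). Fgf2, the ligand type used in most neurosphere media, lay between 0.586 and 1.60 RPKM in the 6 group means. It was higher in HC2 than in HC1 by 0.46 (SE 0.19, adjusted p = 0.047, limma).

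Between HC2 and HC1, 17 of the 68 genes were higher and 23 lower, 58.8% beside 54.3% of all genes, with a median difference of 0.00 beside -0.06. The adaptor gene Grb2, which links receptors to RAS, fell by 2.26 in HC2 (SE 0.08, adjusted p = 1.8e-13, limma). It had 16.5 ± 2.77 RPKM among knockouts of HC2 and 15.4 ± 1.21 among its wild types (SD, n = 4 each), against 78.4 ± 6.46 in HC1 knockouts and 81.1 ± 0.89 in HC1 wild types (SD, n = 3 each). The feedback inhibitor gene Spred2 was lower (difference -2.10), and its relative Spred1 differed by -0.14 (adjusted p = 0.36, limma). The ERK-induced genes Phlda1, Etv1, Egr1 and Myc were lower, with differences of -2.0, -1.88, -1.85 and -1.14, and Fos was higher by 1.07. Of the co-receptor genes 5 were higher and 5 lower, led by Sdc4 (1.73), Gpc5 (1.37) and Gpc1 (1.07) among the higher and by Gpc4 (-1.67) and Flrt3 (-1.01) among the lower. Of 13 adaptor genes 3 were higher, led by Frs3 (0.95), and 8 lower. These wider changes went with the gap in depth and in the share of the highest genes between the rounds, whose part was not tested.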

How the data were processed

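RNA of 20 neurosphere cultures was measured. Per the labels' protocols, stranded libraries were made after removal of ribosomal RNA, mouse exons were captured with probes, and fragments were read from both ends. The submitters' processing notes name FastQC 0.11.5, DESeq2 and the build mm10, also called GRCm38, with aligner, counter and gene lengths not given in the sources used here. Values deposited by the authors are linear RPKM per gene, per the file headers, and blanks were read as 0. A second table of 19709 genes, with the same values, served as a gene list. Because these values are no counts, count models were not applied.

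A gene was kept if 3 or more of the 20 libraries reached 0.5 RPKM. limma 3.58.1 in R 4.3.3 was fitted to log2(RPKM + 1), which understates changes of low genes, with 1 mean for each of 6 groups (eBayes, trend and robust). P-values are two-sided and Benjamini-Hochberg adjusted over all 16403 genes tested, the threshold being 0.05. The procedure was tested on simulated data. Depth was taken from the steps of low RPKM values: 120 of 128 first-round and 145 of 159 HC2 values were whole reads within 0.15 reads. The step was set from the lowest of these same values, which match by design. The counts are therefore no independent check, and the depths are estimates. No depth per gene follows from this, so no count intervals are given. Promoter windows are from RefSeq. A comparison of protein sequences was not run.

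The 10 genes, the lists and the tests were chosen with earlier results of these data known. All 10 genes are named in each comparison; from the pathway lists at most 5 called genes per direction with the largest difference, plus Fgf1, Fgf2, Fgfr4 and Egfl7; and for likeness the 3 genes of highest r. Alternatives were a pseudocount of 0.1, no filter, the authors' gene list, TMM factors, library weights, a fit on only the compared groups, replicate blocks, male donors only and leaving out libraries; the male fit on 2 groups was added after the data were seen.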

Additional observations from a re-analysis of the deposited data

Results flagged for a closer look

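Spry2 and Dusp6 drew attention because their knockout libraries lay on opposite sides of the wild types in SVZ and HC1 spheres. Over all genes, groups did not overlap in 7.76% in the SVZ and in 13.7% in HC1. The share of genes on opposite sides in both was not counted, so how unusual these 2 genes are cannot be said. In the SVZ every knockout library was below every wild type, with differences of -0.15 for Spry2 and -0.27 for Dusp6 on the log2(RPKM + 1) scale. Egfl7 went against the label in 1 SVZ library of each genotype, and without both the differences were -0.16 for Spry2 and -0.21 for Dusp6. In HC1 every knockout library was above every wild type, with differences of 0.45 for Spry2 and 0.89 for Dusp6. The difference between the settings had an adjusted limma p of 1 on all 6 groups and of 0.53 on the first-round groups, for either gene. HC1 genotype is also donor sex, and the 2 cannot be told apart. The 10 genes were also looked at in the 2 HC2 groups of 4 libraries for a single library far from the rest, and 0 of these 20 sets of values were flagged. With only 4 values in a set, this does not show that no library stood out. Without HC2 wild type replicate 5 the HC2 difference of Dusp6 was 0.29, against 1.26 with it.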

How the results depend on the processing

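No knockout comparison changed its count: 0 of 10 genes passed under each of the 13 to 20 alternatives per comparison, with at most 26 genes called in all. Between the SVZ and HC1, 1 gene passed as reported, 3 with library weights, 6 in the fit on only the groups compared, 2 between male groups fitted alone, and 0 between male groups with the shared spread or without both SVZ libraries whose Egfl7 goes against the label. Leaving out single libraries gave 0 to 1, and the 0 was without HC1 wild type replicate 1. Between HC2 and HC1, 3 passed as reported, 7 with library weights and 1 in either male fit; leaving out single libraries gave 3 to 6. The replicate numbers showed no sign of pairing knockouts with wild types: same-numbered libraries had correlations of 0.007, -0.063 and -0.259 in the SVZ and -0.047, -0.115 and -0.029 in HC1. These are deviations from means of 3 libraries, which sum to 0, so low values cannot show that pairing is absent. Shared animals between regions or rounds were not tested. With a replicate block, 6 genes passed between the SVZ and HC1, as without it in the same fit, and 0 in both knockout comparisons. The block followed replicate numbers, and SVZ and HC1 libraries of the same replicate number have different mouse numbers in the labels. Between the SVZ and HC1 it is therefore no check on shared animals. Of 1050 single-gene values under alternatives, 1000 kept direction and side of the threshold, 7 lost a call, 21 gained one and 22 changed sign, and the cause was not tested. Changed signs outside single-library settings were, for SVZ knockouts, Fgfr1 at 0.0255 with library weights and 0.0757 without both doubtful SVZ libraries, and Etv5 at 0.000935 with TMM; between SVZ and HC1 male groups, Fgfr1 at -0.075, Spry2 at -0.0453 and Etv4 at -0.17; and between rounds, Dusp6 at -0.18 with library weights. Leaving out single libraries gave ranges across 0 in the SVZ for Fgfr1 (-0.0848 to 0.0726), Fgfr2 (-0.216 to 0.0288), Spry4 (-0.0048 to 0.30) and Etv5 (-0.112 to 0.0694), in HC1 for Fgfr2 (-0.48 to 0.10), in HC2 for Spry2 (-0.0152 to 0.665) and Etv4 (-0.0485 to 0.579), and between rounds for Dusp6 (-0.24 to 0.63). TMM raised the share of higher calls over all genes to 53.4% from 42.4% in the SVZ against HC1, and to 51.4% from 42% in HC2 against HC1.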
